A study of Mus musculus with 23 samples.

Results

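T cell receptor segment windows are the counted windows at the V (variable), D (diversity) and J (joining) gene segments of the 4 mouse T cell receptor loci. They were chosen by symbol alone, as windows whose name gives the locus (Tra, Trb, Trd or Trg), the segment type and a number, and 221 of 41388 windows met that rule. The alpha locus contributed 109 V and 59 J segments. The beta locus contributed 23 V, 2 D and 14 J segments, the delta locus 5 V, 2 D and 2 J segments, and the gamma locus 1 V and 4 J segments. Segments of the gamma locus that the tables list under older symbols beginning with Tcrg-V, and the constant regions, lay outside the rule.

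The windows were counted in genomic DNA from the spleen and from the left ventricle of the heart of male C57Bl/6 mice that were housed individually. The mice received a diet high in resistant starch (high fibre), 100 mM magnesium acetate in the drinking water (acetate), or a control diet without resistant starch, starting 3 weeks before the implantation of a minipump, which per the labels applied to every group. Spleen gave 4 libraries on each diet, and heart gave 4 on high fibre, 3 on acetate and 4 on control. Sheared DNA was enriched with MethylMiner, a kit that captures fragments carrying methylated CpG sites through a methyl-CpG binding protein, and the captured fragments were sequenced and counted in 3 kb windows at transcription start sites. The labels do not say whether the libraries of a group came from separate mice, so p-values measure only the spread between these libraries.

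T cells assemble the genes of their antigen receptors by V(D)J recombination, in which the Rag1 and Rag2 proteins cut beside the segments. End-joining factors then fuse 1 V, in some chains 1 D, and 1 J segment. Where the segments share an orientation, the DNA between them is lost. Alpha and gamma chains use V and J segments, and beta and delta chains use V, D and J segments. The delta segments lie inside the alpha locus, between its V and J segments, so that an alpha rearrangement deletes them. Complete rearrangement of these loci is a property of T cells, and heart muscle, stromal and endothelial cells keep them in the germline order. In bulk tissue, fewer cells of one type and less captured DNA per cell cannot be told apart, and absence of a stretch of DNA gives the same count as lack of methylation in it.

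Segment windows held few reads. Library totals lay between 4.36 and 9.87 M reads in spleen and between 4.12 and 8.60 M in heart, and the 221 windows together held 1090 to 2030 reads per spleen library and 1779 to 5544 per heart library. Reads fell in 84 to 110 of the 221 windows in spleen and in 102 to 129 in heart. Over all 23 libraries the windows held 60249 reads, 18357 in spleen and 41892 in heart. The window of Gm10800 alone held 48.2% to 61.2% of the reads of a spleen library and 17.3% to 50.05% of those of a heart library, so levels below are CPM, counts per M reads after TMM scaling, a factor set from the bulk of windows.

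Coverage depended on the segment type. Of the 221 windows, 85 (38.5%) held 0 reads in every library, against 8.79% of all other windows in the tables. J segments made up most of them. All 14 Trbj windows and 58 of 59 Traj windows held 0 reads in 23 libraries, where a count of 0 allows up to 3 reads per library. Traj61 held 33 reads in all. V segments were covered far more often, with 10 of 138 windows at 0. Of the 4 D segments, Trdd1 held 721 reads, Trbd1 held 26 reads and the other 2 held 0.

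The windows at 0 were those with close neighbours. The start of another counted gene lay within 3000 bases of 100 of the 221 segments, and 83 of these 100 windows held 0 reads in every library. Of the 121 segments with no counted start that close, 2 held 0 reads. The share at 0 was 27 of 27 where the nearest counted start lay under 500 bases away, 35 of 40 at 500 to 999 bases, 13 of 16 at 1000 to 1499 bases, 2 of 2 at 1500 to 1999 bases, 6 of 15 at 2000 to 2999 bases, 2 of 47 at 3000 to 5999 bases and 0 of 74 beyond. Windows of 3 kb would overlap if they lay alike around starts this close. How reads that fall in several windows were counted is not given in the sources used here, and its part in the empty J windows was not tested. Of the 6 J windows with reads, 4 had no counted start within 3000 bases. These were Trdj2 with 709 reads, whose nearest counted start is 11883 bases away, Trgj2 with 687, Trgj3 with 168 and Trgj1 with 166. The other 2, Trdj1 and Traj61, have a closer neighbour and held 56 and 33 reads. As the part of spacing in these counts was not tested, a count of 0 in a J window is not read here as a low level.

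**Figure D1:**
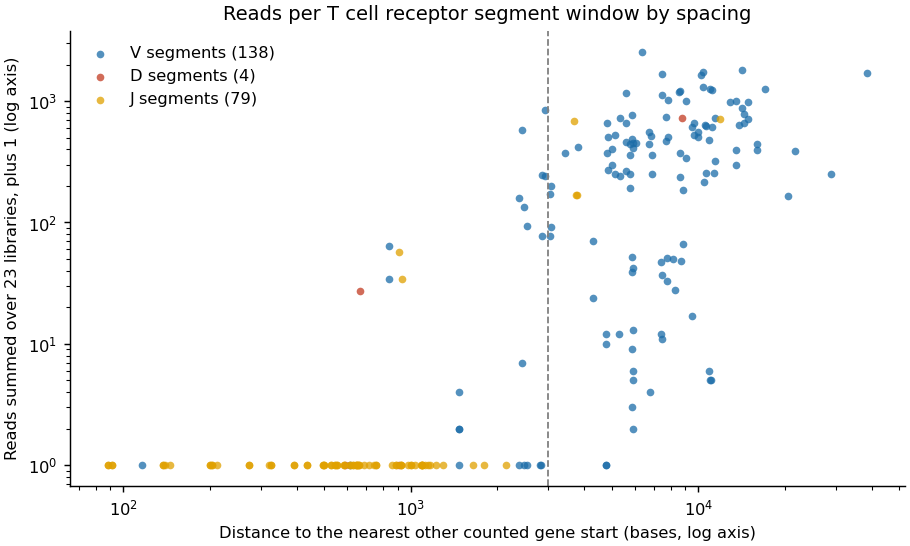
Reads summed over 23 libraries, plus 1, on a log axis, for each of the 221 segment windows by the distance in bases to the nearest other counted gene start, also on a log axis, with V, D and J segments in different colours and a dashed line at 3000 bases. Most points on the bottom line, at 0 reads, are J segments left of the dashed line, while 2 windows right of it held 0 reads.

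Near-identical V segments were a further group with few reads. In the C57BL/6 reference many Trav segments occur in copies marked d and n after the family number. The 35 d copies had a median of 0 reads per window in spleen and 3 in heart, and the 28 n copies had 0 in spleen and 1.5 in heart. The 46 Trav windows without such a mark had a median of 6.5 reads in spleen and 36 in heart. How reads that match several copies were assigned is not given, so values of single d and n windows are uncertain, and low reads in them were not compared with those of other V segments by a test.

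The delta V segments were the most deeply covered group, with a median of 33 reads per window in spleen and 62 in heart. Trdv5, the delta V segment that lies beyond the delta constant region in inverted orientation, held 2542 reads, the highest of the 221 windows, with a median of 78.5 in spleen and 137 in heart. The highest windows of the other V groups were Trav19 with 1817 reads, Trbv21 with 995 and Trgv2 with 375. The next-highest of the delta segments was Trdv4 with 1713 reads.

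One stretch of the alpha locus was nearly empty in some libraries. Between Trav8d-2 and Trav9n-4, on chromosome 14 from base 53042428 to base 53295030 of GRCm38 (252.6 kb), lie 23 V segment windows, 4 of which held 0 reads in every library. In spleen the reads summed over the 23 windows were 0, 3, 0 and 67 in high fibre libraries 1 to 4, 88, 73, 54 and 82 in acetate libraries 1 to 4, and 54, 94, 0 and 58 in control libraries 1 to 4. In heart they were 8, 2, 5 and 467 in high fibre libraries 1 to 4, 125, 318 and 379 in acetate libraries 1 to 3, and 311, 336, 1 and 262 in control libraries 1 to 4. The libraries near 0 carried the same 4 numbers in both tissues: high fibre 1, 2 and 3 and control 3. No library of the acetate group was near 0.

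The pattern was plain in its well-covered windows. Trav6n-6, its most covered V segment with 624 reads, held 0, 0, 0 and 17 reads in the high fibre spleen libraries, 37, 19, 24 and 25 in the acetate spleen libraries and 19, 34, 0 and 20 in the control spleen libraries. In heart it held 1, 0, 0 and 90 reads on high fibre, 34, 53 and 61 on acetate and 80, 59, 0 and 51 on control. Trav8d-2, its first window, held 3, 1, 0 and 63 reads in the high fibre hearts, 24, 42 and 71 in the acetate hearts and 67, 73, 0 and 48 in the control hearts. In both windows the 4 low libraries lay clear of all others of their tissue.

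The nearest well-covered windows on either side were not low in these hearts. The 4 nearest well-covered V segments before the stretch (Trav8d-1, Trav6d-5, Trav10d and Trav6d-6) summed to 15.0 to 20.2 CPM in the 4 hearts near 0 in the stretch and to 13.3 to 18.1 CPM in the other 7 hearts. The 4 after it (Trav8n-2, Trav16n, Trav13n-4 and Trav14n-3) summed to 16.1 to 19.4 CPM in those 4 hearts and to 13.5 to 18.5 CPM in the other 7. Trav8n-2 begins 303.5 kb after Trav8d-2, and Trav6d-6, the closest of those before, begins at base 52821922. The windows between these and the stretch held at most 11 reads in any library. Trav13d-3, directly before the stretch, held 0 reads in the 8 libraries near 0 and 16 in the others, and Trav4n-4, directly after it, 0 and 10, while Trav9d-4 held 13 and 33. The ends of the stretch are therefore not resolved, and Trav8d-2 and Trav9n-4 mark only the windows chosen. Ranges on both sides overlapped between the 2 sets of libraries, which are described here and not compared by a test, since they were picked by these reads.

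Outside the stretch, no well-covered window of the genome was near 0 in the same 4 hearts. The search covered only these hearts, which were picked by the reads of the stretch, and no other set of libraries. Of 32520 windows with a median of 10 or more reads in the other 7 hearts, 9 had at most 3 reads in each of the 4 hearts, and all 9 were V segments of this stretch. Since 3 of 4 high fibre libraries but 1 of 4 control libraries and no acetate library were near 0, the stretch enters every diet comparison below unevenly, and in the heart comparison that called segments the count is also given without its windows. In the tissue comparisons 9 of its windows were tested, and 4 of them were lower in spleen on high fibre, 2 on acetate and 3 on the control diet. Whether DNA or methylation was missing there cannot be told apart from captured reads.

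**Figure D2:**
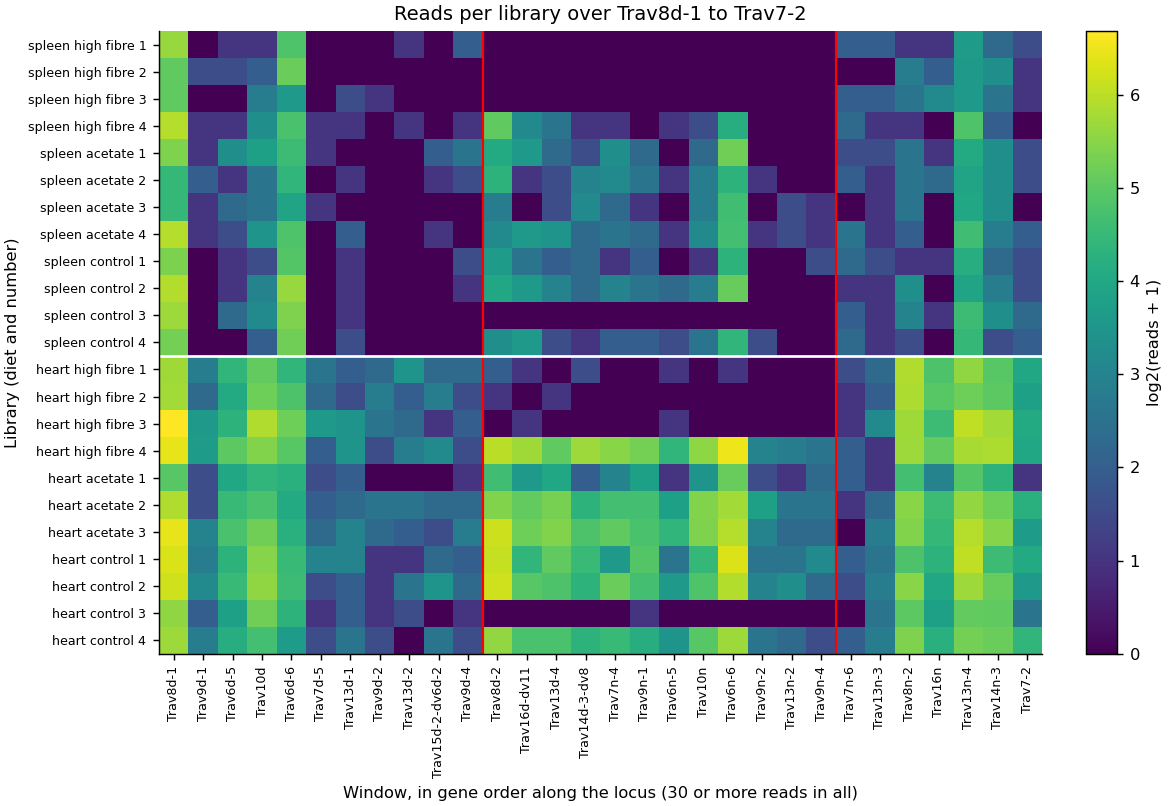
Reads per library, as log2(reads + 1), in the windows from Trav8d-1 to Trav7-2 that held 30 or more reads in all, in gene order from left to right, with spleen libraries above and heart libraries below the white line. Between the red lines, which mark Trav8d-2 to Trav9n-4, high fibre libraries 1, 2 and 3 and control library 3 are dark in both tissues. Outside the lines, heart windows such as Trav8n-2, with 31 to 58 reads in these 4 hearts, are not, while windows with few reads are dark in many libraries.

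Spleen was set against heart on each diet in 1 fit over all 23 libraries, with the quasi-likelihood test of edgeR and Benjamini-Hochberg adjustment at 5% over 33982 windows. Of the 221 segment windows, 98 had enough reads to be tested. On the control diet 10 were higher and 56 lower in spleen, 10.2% and 57.1% of those tested, while 32.7% of all windows tested were higher and 40% lower (72.7% in either direction). Their median log2 fold change was -1.18 (all windows -0.19). On high fibre 13 were higher and 70 lower (35.6% and 45.1% of all windows, 80.7% in either direction), with a median of -1.68 (all windows -0.24). On acetate 8 were higher and 51 lower (29% and 34% of all windows, 63% in either direction), with a median of -1.04 (all windows -0.19).

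These counts depend on which windows could be tested and on the scaling. On acetate, fewer segments were called when the title number shared by a heart and a spleen library was used as a block. In all, 55 of the tested segments passed the read filter in heart but not in spleen. They were tested because of their heart reads, so that a lower level in spleen is favoured by the choice, and their calls are not read as support. Of the 41 that passed in each tissue by itself, 13 were higher and 16 lower in spleen on high fibre, 8 and 9 on acetate, and 10 and 11 on the control diet. With library totals in place of TMM, the median of all windows moved to -1.03 on the control diet and the segments gave 2 higher and 85 lower, with a median of -1.81. With a cyclic loess correction, which removes trends with the level, they gave 15 higher and 7 lower on high fibre, 11 and 10 on acetate and 16 and 14 on the control diet, and the control-diet median was -0.01.

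Over all windows, tissue differences followed the level of a window. When the windows tested were split into 10 bins of equal size by mean level, the median log2 fold change on the control diet was -1.15, -1.40 and -1.50 in the lowest 3 bins and 0.47, 0.67 and 0.78 in the highest 3. The 98 segments lay low, with 22, 18, 20 and 19 in the lowest 4 bins and none in the highest 2. In the lowest 4 bins their medians were -1.25, -1.44, -1.89 and -0.77, beside -1.15, -1.40, -1.50 and -1.004 for all windows of those bins. Olfactory receptor windows, another clustered family of low level, gave 122 higher and 798 lower of 1226 with a median of -1.23, and immunoglobulin segment windows gave 22 higher and 141 lower of 219 with a median of -1.32. No test of the segments against these families was made.

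**Figure D3:**
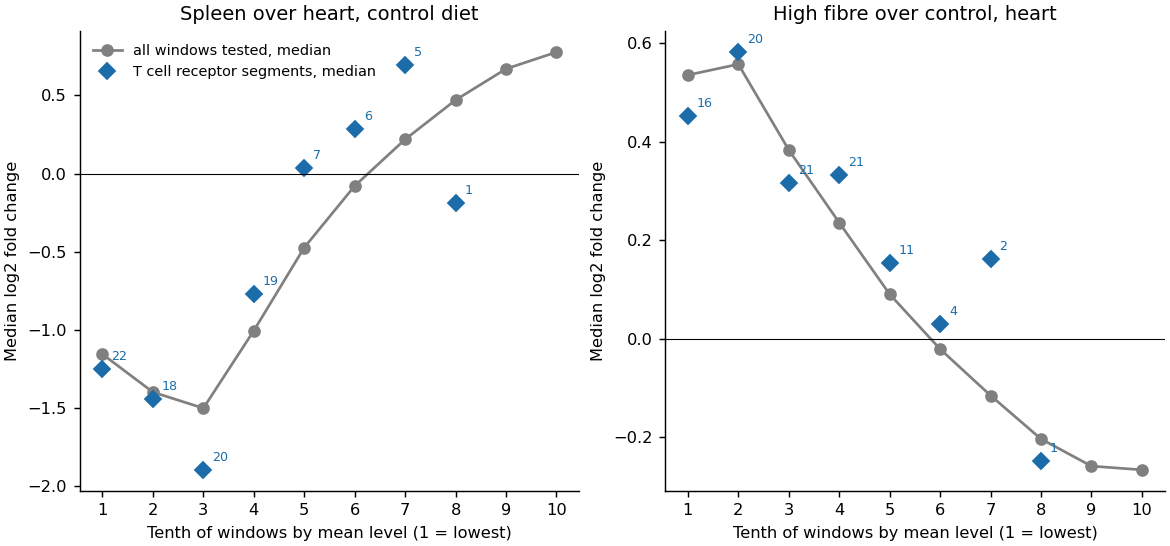
Median log2 fold change of all windows tested (grey line) and of segment windows (blue, with their number) in each of 10 bins of windows by mean level, for spleen over heart on the control diet (left) and high fibre over control in heart (right). In the lowest 4 bins on the left the segments lie between -1.89 and -0.77 and all windows between -1.50 and -1.004.

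Single segments stood on both sides of this trend, and calls repeated across the diets, which have separate libraries. In the 3 comparisons 8 segments were higher in spleen each time, 45 were lower each time, 13 were called in none and 0 were called in opposite directions. Of the 45, 36 passed the filter in heart only and 9 in both tissues. All windows tested gave 9136, 10064, 4345 and 26. The 8 higher ones were 7 alpha V segments, Trav4d-2, Trav6d-6, Trav4-2, Trav6-3, Trav7-3, Trav9-4 and Trav4-4-dv10, and 1 beta V segment, Trbv21.

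Trav4-2, an alpha V segment at chromosome 14, bases 53418388 to 53418873, had the smallest p of those higher in spleen on the control diet. Its level was 30.5, 16.2, 17.4 and 20.4 CPM in the 4 control-diet spleens and 6.35, 7.44, 7.22 and 5.43 CPM in the 4 control-diet hearts. The tissues did not overlap on any diet. The log2 fold change was 1.87 ± 0.19 (SE) on high fibre, 1.70 ± 0.21 on acetate and 1.61 ± 0.18 on the control diet (adjusted p = 4.07e-09 on control, edgeR). With library totals it remained above 0 on each diet, at 0.32 on high fibre, 0.77 on acetate and 0.72 on control, of which the first was not called.

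Its neighbours on the chromosome went the same way. Trav6-3 and Trav7-3 are the next 2 counted alpha V segments. Trav6-3 had 12.35, 9.29, 13.36 and 16.98 CPM in control-diet spleens and 6.85, 5.03, 5.89 and 5.30 CPM in control-diet hearts, a log2 fold change of 1.11 ± 0.17 (adjusted p = 8e-07, edgeR). Trav7-3 had 13.3, 9.71, 12.7 and 13.3 CPM in control-diet spleens and 5.44, 5.47, 4.57 and 7.83 CPM in control-diet hearts, a log2 fold change of 1.02 ± 0.17 (adjusted p = 3.51e-06, edgeR). In both windows every spleen library of the 3 diets lay above every heart library on the TMM scale, and with library totals the direction turned round on high fibre (-0.71 for Trav6-3 and -0.39 for Trav7-3) and on acetate (-0.47 for Trav6-3 and -0.39 for Trav7-3). The segments on either side of the 3 were lower in spleen on the control diet, with -1.19 for Trav7-2 and -1.48 for Trav6-4. Both passed the filter in heart only, so these values are not read as support for an edge of the run.

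A second run of 3 neighbours lay further along. Trav3-3, Trav9-4 and Trav4-4-dv10, numbers 93 to 95 in the order of the 177 chromosome 14 windows, had log2 fold changes of 0.69 ± 0.18, 0.76 ± 0.20 and 1.18 ± 0.20 on the control diet. Trav4-4-dv10, which both alpha and delta chains can use, ranged from 12.3 to 24.7 CPM over 12 spleens with a median of 13.7, and from 5.68 to 9.80 CPM over 11 hearts with a median of 7.27. The next window, Trav5-4, was lower at -2.36 but passed the filter in heart only. With library totals Trav3-3 and Trav9-4 were below 0 on the control diet, at -0.18 and -0.10. On high fibre library totals turned the direction round for Trav9-4 (-0.78, adjusted p = 0.00222, edgeR) and for Trav4-4-dv10 (-0.49, adjusted p = 0.0291, edgeR).

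Trav6d-6 and Trav4d-2 are d copies among the first alpha V segments. Trav6d-6 had 6.76, 6.90, 6.68 and 7.96 CPM in control-diet spleens and 2.22, 2.52, 2.80 and 1.51 CPM in control-diet hearts, a log2 fold change of 1.53 ± 0.26 (adjusted p = 3.34e-06, edgeR). Its tissues did not overlap on the control diet or on acetate and did on high fibre. Trav4d-2 ranged from 3.24 to 8.98 CPM over 12 spleens and from 1.68 to 3.10 CPM over 11 hearts, so its tissues did not overlap. Since near-identical copies exist, reads of these windows may belong to other copies. On high fibre both turned below 0 with library totals, at -0.72 for Trav6d-6 and -0.05 for Trav4d-2.

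Alpha V segments that were lower in spleen were led by Trav18. It had 0.932, 0.985, 2.12 and 1.29 CPM in control-diet spleens and 8.46, 8.75, 8.39 and 7.32 CPM in control-diet hearts, and its log2 fold change was -2.37 ± 0.26 (adjusted p = 1.24e-09, edgeR). No spleen of any diet reached the lowest heart, and its neighbour Trav19, the most covered alpha V window, went the other way with 13.75, 12.25, 14.66 and 14.19 CPM in control-diet spleens and 10.98, 10.94, 9.13 and 8.84 CPM in control-diet hearts. Trav19 had a log2 fold change of 0.44 ± 0.14, which became -0.45 with library totals (adjusted p = 0.0241, edgeR), and on high fibre library totals gave -1.14. Trav3-4 (-2.47 ± 0.37), Trav4-3 (-2.21 ± 0.35), Trav13-2 (-2.09 ± 0.35) and Trav10d (-2.02 ± 0.34) were the other alpha segments among the 10 lower ones of smallest p. In all, 11 alpha V segments were higher and 45 lower of 67 tested on high fibre, 7 and 33 on acetate, and 9 and 36 on the control diet. Among the 31 that passed the filter in both tissues, which include Trav18 but not the other 4 lower ones just named, 11 were higher and 12 lower on high fibre, 7 and 6 on acetate, and 9 and 7 on the control diet.

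**Figure D4:**
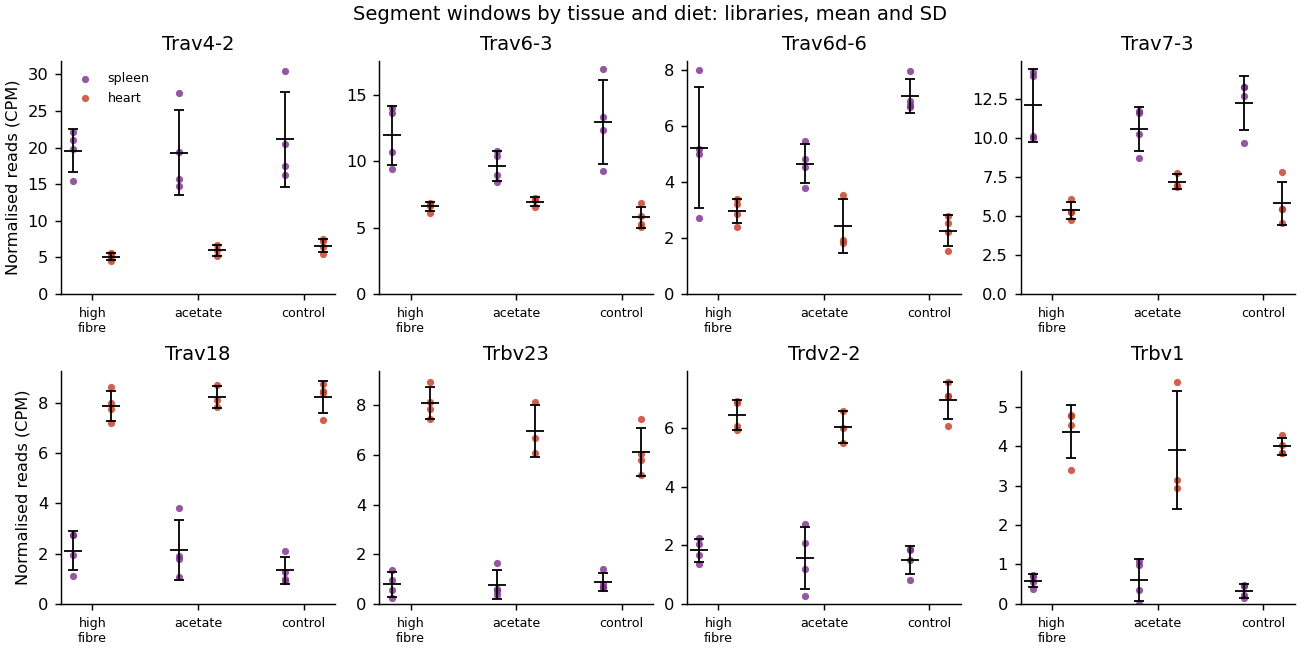
Level in CPM, TMM scaled over 23 libraries, of 4 windows higher and 4 windows lower in spleen, chosen by the smallest p on the control diet, in each library by diet with spleen left of heart. Bars show the mean and SD over 4 libraries, or 3 for heart on acetate. Trav4-2, Trav6-3 and Trav7-3 have every spleen above every heart, Trav6d-6 has an overlap on high fibre, and Trav18, Trbv23, Trdv2-2 and Trbv1 have every spleen below every heart.

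Of 19 beta V segments tested, 11 were lower in spleen on all 3 diets and Trbv21 was higher on all 3. In all, 1 was higher and 18 lower on high fibre, 1 and 14 on acetate, and 1 and 15 on the control diet. These counts rest largely on 15 segments that passed the filter in heart only. The 4 that passed in both tissues, Trbv5, Trbv16, Trbv19 and Trbv21, gave 1 higher and 3 lower on high fibre, 1 and 2 on acetate, and 1 and 3 on the control diet. With no filter, the 23 beta V windows summed to 25.9 ± 4.09 CPM in control-diet spleens and 63.3 ± 4.29 CPM in control-diet hearts (SD, n = 4 each), and the ranges, 22.5 to 31.4 in spleen and 58.5 to 68.1 in heart, did not overlap. On high fibre the sums were 27.6 ± 1.24 CPM in spleen and 94.2 ± 7.20 CPM in heart (n = 4 each), and on acetate 32.4 ± 8.53 CPM in spleen (n = 4) and 70.0 ± 22.4 CPM in heart (n = 3), where the lowest heart library and the highest spleen library were both at 44.3.

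Trbv1, which lies apart at the start of the locus at chromosome 6, bases 40891296 to 40891885, had the most negative value of the 98 on the control diet. It had 0.466, 0.141, 0.489 and 0.215 CPM in control-diet spleens and 4.03, 3.83, 3.83 and 4.29 CPM in control-diet hearts, a log2 fold change of -2.80 ± 0.38 (adjusted p = 9.39e-08, edgeR). Both Trbv1 and Trbv23 passed the filter in heart only. Trbv23 had 0.699, 1.41, 0.815 and 0.645 CPM in control-diet spleens and 7.46, 5.80, 6.04 and 5.17 CPM in control-diet hearts, and its log2 fold change was -2.95 ± 0.30 on high fibre, -2.83 ± 0.33 on acetate and -2.38 ± 0.29 on control. On the control diet both remained called lower in spleen under library totals and under the loess correction. Trbv21 lies directly before Trbv23 among the counted windows and was the 1 called higher, with 11.18, 6.19, 6.52 and 12.04 CPM in control-diet spleens and 4.43, 5.03, 3.24 and 4.17 CPM in control-diet hearts, a log2 fold change of 0.98 ± 0.23 (adjusted p = 3.58e-04, edgeR). With library totals it was 0.11 on the control diet and -0.82 on high fibre.

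**Figure D5:**
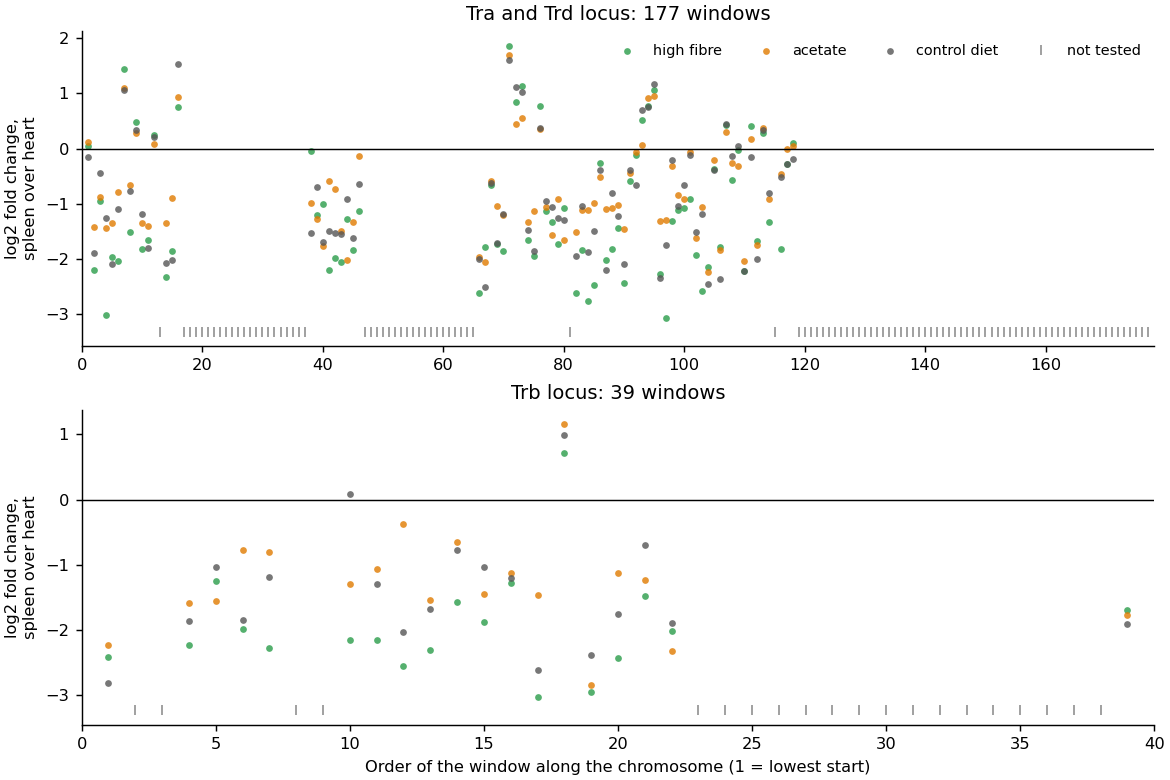
Log2 fold change of spleen over heart for each tested segment window in gene order along the alpha and delta locus (top, 177 windows) and the beta locus (bottom, 39 windows), with diets in different colours and grey ticks for windows not tested. The run of J segments at the right of the top panel is untested, Trav4-2, Trav6-3 and Trav7-3 stand together above 0, and Trbv21 stands alone above 0 on all 3 diets among the beta segments.

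Delta segments were split. Trdv2-2, a delta V segment, had 1.86, 1.83, 0.815 and 1.505 CPM in control-diet spleens and 6.05, 7.55, 7.07 and 7.07 CPM in control-diet hearts, a log2 fold change of -2.01 ± 0.27 (adjusted p = 7.65e-08, edgeR). Trdv1, which follows the last alpha V segment, was lower too, at -2.23 ± 0.37 (adjusted p = 2.29e-06). The tissues did not overlap for either on any diet. Both passed the filter in heart only.

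The other 3 delta V segments were not called on the control diet. Trdv5 had 16.08, 13.37, 17.6 and 16.98 CPM in control-diet spleens and 19.05, 18.38, 18.41 and 17.04 CPM in control-diet hearts, a log2 fold change of -0.19 ± 0.14. Trdv4 was at 0.33 ± 0.18 (adjusted p = 0.0932, edgeR) and Trdv2-1 at -0.15 ± 0.20 (adjusted p = 0.492, edgeR), while on high fibre Trdv2-1 was higher in spleen at 0.41 ± 0.19 (adjusted p = 0.0485, edgeR). The 5 delta V windows summed to 36.3 ± 4.48 CPM in control-diet spleens and 46.5 ± 1.29 CPM in control-diet hearts (SD, n = 4 each).

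Delta D and J segments are joined to each other and to a delta V segment to make the variable part of the delta chain. Trdd1 had 0.932, 4.79, 3.75 and 1.505 CPM in control-diet spleens and 6.25, 5.58, 5.74 and 4.04 CPM in control-diet hearts, a log2 fold change of -0.81 ± 0.29 (adjusted p = 0.0127, edgeR), and it was lower on high fibre (-1.33 ± 0.31) and on acetate (-0.93 ± 0.32). Spleen and heart overlapped on the control diet. Trdj2 had 2.33, 3.38, 5.38 and 3.44 CPM in control-diet spleens and 4.63, 4.70, 2.94 and 5.81 CPM in control-diet hearts and was called on no diet (-0.28 ± 0.27 on control). Trdj1 held 56 reads in all and was lower in spleen on high fibre, where the 4 spleens held 0 reads in that window.

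Gamma segments gave 5 windows. Trgv2 had 0.466, 0.422, 1.63 and 0.645 CPM in control-diet spleens and 2.92, 3.50, 2.94 and 2.78 CPM in control-diet hearts, a log2 fold change of -1.60 ± 0.38 (adjusted p = 4.02e-04, edgeR), with no overlap on any diet. It passed the filter in heart only. The J segment Trgj2 had 3.96, 5.35, 4.72 and 4.95 CPM in control-diet spleens and 3.53, 5.14, 3.24 and 4.92 CPM in control-diet hearts and was not called on any diet (0.17 ± 0.24 on control). Its neighbour Trgj3 was lower in spleen on the control diet at -1.60 ± 0.55 (adjusted p = 0.0104, edgeR) and passed the filter in heart only.

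Genes that act with the segments were read from set lists. Of the receptor constant regions 6 windows were tested, and 0 were higher and 5 lower in spleen on the control diet, among them Trac, the alpha constant region, at -1.22 ± 0.26, while Trbc2, the second beta constant region, was at -0.23 ± 0.30 and not called. Of 11 windows of V(D)J recombination genes, 1 was higher and 8 lower. Dntt, the enzyme that adds bases at V(D)J junctions, was at -2.56 ± 0.22 and Rag2 at -2.55 ± 0.49. Of 18 windows of T cell receptor signalling genes, 5 were higher and 8 lower, and Lck, a kinase that starts signalling from the receptor, was at -0.04 ± 0.15. Several of the lower windows passed the filter in heart only, so their calls are not read as support. Among constant regions these were Tcrg-C1, Tcrg-C2, Tcrg-C3 and Tcrg-C4, and among recombination genes Rag2, Xrcc5, Nhej1 and Prkdc. Among signalling genes they were Gata3, Bcl11b and Cd3d.

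Markers of the cell types that differ between the tissues moved in both directions. On the control diet 2 of 10 T cell marker windows were higher and 4 lower in spleen, and their summed level was 240.1 to 347.7 CPM in spleen and 128.2 to 215.9 CPM in heart over all diets. The sum rests largely on Zap70, with means of 169.3 CPM in control-diet spleens and 64.0 CPM in control-diet hearts. It therefore does not show the level of the list as a whole. Of 9 B cell marker windows, 0 were higher and 8 lower, with sums of 49.3 to 69.9 CPM in spleen and 97.0 to 121.3 CPM in heart. The windows of Cr2 among them passed the filter in heart only. Of 8 cardiomyocyte marker windows, 6 were higher and 2 lower, with sums of 232.2 to 353.5 CPM in spleen and 88.1 to 130.6 CPM in heart. No marker of these 3 lists was at 0 in every library. The part that cell composition has in the segment values was not tested.

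In heart, high fibre was set against control within the 11 heart libraries, where 96 segment windows and 33562 windows in all were tested. On high fibre 14 segments were higher and 0 lower, beside 12.6% of all windows higher and 13.6% lower (26.2% in either direction). Their median log2 fold change was 0.26 (all windows 0.02). Of 19 beta V segments 6 were higher, with a median of 0.61, and all 19 values were above 0. Of 66 alpha V segments 8 were higher, with a median of 0.13. That share was near the 12.6% of all windows, and the share of all segments called higher lay only slightly above it. No delta or gamma segment was called.

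The called segments were of low level. Trav14-1, an alpha V segment, had 4.43, 4.17, 2.73 and 4.35 CPM in high fibre hearts and 1.41, 1.53, 1.03 and 1.89 CPM in control hearts, a log2 fold change of 1.28 ± 0.30 (adjusted p = 0.00831, edgeR). Trav6-4 had 3.00, 3.69, 3.29 and 3.59 CPM in high fibre hearts and 1.11, 1.203, 1.47 and 0.884 CPM in control hearts, a log2 fold change of 1.39 ± 0.34 (adjusted p = 0.00919, edgeR). The groups did not overlap for either. The acetate hearts had 0.784, 2.63 and 1.93 CPM of Trav14-1 and 0.392, 2.75 and 2.54 CPM of Trav6-4.

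Called beta segments were also higher in high fibre hearts than in control hearts. Trbv17 had 3.35, 3.34, 3.39 and 3.78 CPM in high fibre hearts and 0.705, 1.86, 0.884 and 1.77 CPM in control hearts, a log2 fold change of 1.27 ± 0.40 (adjusted p = 0.0258, edgeR). Trbv26 had 3.83, 3.46, 3.86 and 4.35 CPM in high fibre hearts and 2.02, 2.08, 2.06 and 2.02 CPM in control hearts, a log2 fold change of 0.86 ± 0.27 (adjusted p = 0.0257, edgeR). Trbv19 had 5.39, 6.196, 6.87 and 8.13 CPM in high fibre hearts and 3.33, 3.50, 4.42 and 4.67 CPM in control hearts, a log2 fold change of 0.74 ± 0.20 (adjusted p = 0.0136, edgeR). In none of the 3 did the groups overlap. Without control 1 all 3 lost their call (adjusted p = 0.094 for Trbv17, 0.0709 for Trbv26 and 0.0583 for Trbv19, edgeR). Under the loess correction Trbv19 kept its call, while Trbv17 and Trbv26 lost theirs (adjusted p = 0.117 and 0.232, edgeR). The others called were Trbv13-2 (1.21), Trbv14 (0.93) and Trbv31 (0.60), the last of which lies beyond the beta constant regions in inverted orientation, and Trav6d-4, Trav6-2, Trav6-7-dv9, Trav7-6, Trav6d-3 and Trav15-1-dv6-1 (0.66 to 0.97).

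The sum over all beta V windows was 94.2 ± 7.20 CPM in high fibre hearts, 70.0 ± 22.4 CPM in acetate hearts (n = 3) and 63.3 ± 4.29 CPM in control hearts (SD, n = 4 for the other groups). High fibre libraries ranged from 87.8 to 100.5 CPM and control libraries from 58.5 to 68.1 CPM. The sum over delta V windows was 45.7 ± 3.40 CPM in high fibre hearts and 46.5 ± 1.29 CPM in control hearts, a difference smaller than the spread of the high fibre libraries.

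Over all windows this diet difference also followed the level of a window, and the makeup of the libraries differed between the diets. In the same kind of bins, all windows of the lowest had a median log2 fold change of 0.54 and those of the highest -0.27. Segments in the next 3 bins above the lowest had medians of 0.58, 0.32 and 0.33, beside 0.56, 0.38 and 0.24 for all windows. Of 1223 olfactory receptor windows 535 were higher and 21 lower, and of 218 immunoglobulin segment windows 92 were higher and 1 lower. Of 10 T cell marker windows 1 was higher and 4 lower on high fibre, with sums of 128.2 to 149.9 CPM in high fibre hearts and 168.2 to 194.3 CPM in control hearts. Of 6 myeloid marker windows 0 were higher and 4 lower, with sums of 85.1 to 100.7 CPM in high fibre hearts and 112.9 to 135.3 CPM in control hearts. Of the 6 receptor constant regions tested none was called. The window of Gm10800 took 17.3% to 21.3% of reads in high fibre hearts and 36.8% to 50.05% in control hearts. The part of these libraries' makeup or of cell composition in the segment values was not tested. With library totals 75 segments were higher and 0 lower, where the median of all windows moved to 0.69, and with the loess correction 3 were higher and 5 lower.

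Single libraries and the stretch of the alpha locus mattered here. Outside Trav8d-2 to Trav9n-4 the same 14 segments were higher, of 87. Leaving out 1 heart library at a time gave between 2 and 10 called segments, with 2 when control 1, 5 when control 3 or high fibre 3, 7 when control 2, and 8 when control 4 or high fibre 1 was left out. Of the 10 called segments of smallest p, only 2, Trav14-1 and Trav6-4, kept their call whichever library was left out. Without high fibre 4, the one high fibre library with reads in the stretch, 10 segments were called, of which 2 were higher and 8, all in the stretch, were lower. Without high fibre 1, 2 and 3 and control 3, which leaves 1 high fibre library assumed to vary like the other groups, 0 segments and 0 of all windows were called. With 1 surrogate variable, an estimated hidden covariate, 0 segments were higher and 3, all in the stretch, were lower. This variable lay between 0.215 and 0.395 in high fibre hearts and between -0.366 and -0.062 in control hearts. It separated the diets compared, so that fit cannot show whether the calls hold. In the fit over all 11 hearts the windows of the stretch had negative values that were not called, such as -1.52 for Trav8d-2, -1.31 for Trav13d-4 and -1.15 for Trav6n-6.

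The other diet comparisons called 0 segments with edgeR. For acetate against control in heart, 0 of 96 segments and 0% of all windows were called, and 1 segment had an unadjusted p under 0.05, Trbv19 at 0.53 ± 0.22. For high fibre against acetate in heart 0 of 96 were called (1.38% of all windows, 0.188% higher and 1.19% lower) and 11 had an unadjusted p under 0.05. The segment of smallest p was Trbv14, at 1.18 ± 0.38 (adjusted p = 0.0726, edgeR), and the lowest value among the named ones was that of Trav13d-4 in the stretch, at -1.99 ± 0.69. DESeq2 called 0 segments in both.

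In spleen 41 segments were tested for diet and 0 were called in each of 3 comparisons (0% of all windows each time), with 1 segment at an unadjusted p under 0.05 in each, and DESeq2 called 0. For high fibre against control and against acetate that segment was Trav6n-6 of the stretch, at -1.55 ± 0.65 and -2.32 ± 0.65. For acetate against control it was Trav3-3, at -0.39 ± 0.19. The sum over all segments was 307.1 ± 14.4 CPM in high fibre spleens, 321.6 ± 20.4 CPM in acetate spleens and 302.9 ± 17.1 CPM in control spleens (SD, n = 4 each), and these ranges overlapped.

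Whether a diet difference was unlike between the tissues was tested by the interaction in the fit over 23 libraries. For high fibre against control 0 of 98 segments were called (0.0559% of all windows, 0.0383% higher and 0.0177% lower), and 8 had an unadjusted p under 0.05. The smallest p belonged to Trbv13-2, at -2.23 ± 0.72 (spleen difference minus heart difference, adjusted p = 0.171, edgeR). For acetate against control 0 of 98 were called (0% of all windows) and 6 had an unadjusted p under 0.05, among them Trav6-3 at -0.67 ± 0.26 (adjusted p = 1, edgeR). DESeq2 called 0 segments in both interactions. Of the segments called in heart on high fibre, only Trbv19, Trav6d-3 and Trav7-6 had enough reads for the diet test in spleen. They were at 0.63, -0.065 and -0.43 there and not called. The other segments called in heart were not tested for diet within spleen. With no interaction called, the heart calls are not shown to differ between the tissues.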

How the data were processed

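Per the submitters' processing notes, BWA 0.7.10, featureCounts 1.5.1 and edgeR 3.16.5 were used with GRCm38, and the authors deposited raw read counts per 3 kb window for each tissue. How multi-mapped reads were treated, and where the window lies around the start, is not given in the sources used here. Segment positions are those of the RefSeq gene table on GRCm38.p6.

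Counts were tested with edgeR 4.0.16 (R 4.3.3): TMM scaling, filterByExpr with a minimum count of 10, a quasi-likelihood fit and Benjamini-Hochberg adjustment at 5% over all windows tested. Tissues and interactions were fitted over 23 libraries in 6 groups, and diets within a tissue over that tissue's libraries. Levels (CPM) in every sentence use the scaling over 23 libraries, while diet fold changes use the tissue's own fit with a prior count of 2. SE is the absolute log2 fold change over the root of the F statistic. Alternatives used DESeq2 1.42.0, sva 3.50.0 and limma 3.58.1. The fit was also run on simulated counts with few planted changes. The tissue comparisons differ from that setting, with 63% to 80.7% of all windows called, so nothing is drawn from the simulation. Counting error alone sets the floor of 3 reads for a count of 0.

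Named windows are the 10 higher and 10 lower of smallest p among those called per comparison (3 and 3 where none was), every D segment, every delta V and J segment tested and the most covered segment of each locus and type. Neighbouring segments, windows of the stretch Trav8d-2 to Trav9n-4 and Tcrg windows are named beside them and were chosen after their values were seen. The members and lists were chosen with earlier results of these data known.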

Additional observations from a re-analysis of the deposited data

Results flagged for a closer look

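In 177 groups of 4 libraries, a library far from the other 3 was looked for in each named window and each sum, and 10 were found. Chance gives such a library in about 1 in 20 groups.

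Of the 10, 4 concerned the stretch Trav8d-2 to Trav9n-4, whose windows were chosen for these reads. Its summed level was 12.92 CPM in spleen high fibre 4, with the other 3 libraries of that group at 0 to 0.685 CPM, and 0 CPM in spleen control 3, with the others at 12.47 to 13.23 CPM. In heart it was 44.15 CPM in high fibre 4, with the others at 0.238 to 0.959 CPM, and 0.147 CPM in control 3, with the others at 31.34 to 36.75 CPM.

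The other 6 were single windows or nearly empty sums. Trav14-1 was at 2.73 CPM in heart high fibre 3, with the others at 4.17 to 4.43 CPM, all above the control hearts. Trbv17 was at 3.78 CPM in heart high fibre 4, with the others at 3.34 to 3.39 CPM. Trav6d-6 was at 7.96 CPM in spleen control 4, with the others at 6.68 to 6.90 CPM. Trbv26 was at 3.56 CPM in spleen acetate 2, with the others at 0 to 0.592 CPM. The sum over J segments of the alpha locus was 0.215 CPM in spleen control 4, and the sum over D segments of the beta locus was 0.547 CPM in spleen acetate 2, with 0 in the other 3 libraries of each group.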

How the results depend on the processing

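With library totals in place of TMM, called segments for high fibre against control in heart came to 75, for high fibre against acetate in heart to 2, and for the interaction of high fibre with tissue to 10, all 10 lower. With cyclic loess the tissue comparisons called 22 segments on high fibre, 21 on acetate and 30 on control, and in heart 8 were called for high fibre against control and 1 for high fibre against acetate. With 1 surrogate variable 3, 6 and 1 were called for high fibre against control in heart, high fibre against acetate in heart and high fibre against acetate in spleen, all lower and in the stretch Trav8d-2 to Trav9n-4. In heart that variable separated the high fibre from the control libraries, so it cannot show whether those calls hold. Without high fibre 1, 2 and 3 and control 3, an alternative chosen after seeing the data, the tissue comparison on high fibre called 48 and high fibre against control in heart 0. Leaving out 1 library at a time gave 2 to 10 for high fibre against control in heart, 0 to 3 for high fibre against acetate in heart and 0 to 1 for high fibre against acetate in spleen. The cause of these differences was not tested.

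The direction turned round with library totals for Trav3-3 (-0.18), Trav9-4 (-0.10) and Trav19 (-0.45) on the control diet, for Trav7-3 (-0.39), Trav4d-2 (-0.051), Trav4-4-dv10 (-0.49), Trav6-3 (-0.71), Trav8-1 (-0.78), Trav9-4 (-0.78), Trbv21 (-0.82), Trav19 (-1.14) and Trav6d-6 (-0.72) on high fibre, and for Trav7-3 (-0.39) and Trav6-3 (-0.47) on acetate, all spleen over heart. It also did for Trdv2-1 (-0.12), Trav16n (-0.24) and Trav18 (-0.13) in the interaction with high fibre, Trdv5 (0.10) for acetate against control in heart and Trav7-3 (0.015) for high fibre against acetate in heart. With the surrogate variable, which separated these diets, Trbv17 (-0.34) and Trav6d-3 (-0.072) turned round for high fibre against control in heart. Trav16n in the interaction with high fibre lay between -0.018, without spleen high fibre 3, and 1.05 when 1 library was left out, and was at -0.90 without the 4 numbers. Without the 4 numbers Trav8d-2 was at 0.040 for high fibre against acetate in heart.

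A heart and a spleen library with one title number share diet and replicate number, and the labels do not say whether they share a mouse. The libraries near 0 in the stretch carry the same numbers in both tissues, while correlations of deviations over all windows ranged from -0.113 to 0.375 over the 11 heart and spleen pairs and from -0.0753 to 0.604 between diets, so the fits given have no block. With the title number as a block, 33 segments (6 higher and 27 lower) were called between tissues on acetate. For diets within a tissue the block was the replicate number, which joins libraries of different title numbers and diets. It gave 25 for high fibre against control in heart (21 higher and 4 lower) and 8 for high fibre against acetate in heart. These blocks moved no other count of called segments by over 1.5 times. Depth limits all values, and 123 of the 221 segments were not tested.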

Other observations

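Windows at gamma V segments listed under older symbols gave further values, as raw reads. Tcrg-V4 held 18, 26, 13 and 21 reads in high fibre spleens, 19, 11, 9 and 32 in acetate spleens and 21, 24, 22 and 24 in control spleens. In heart it held 71, 84, 89 and 95 reads on high fibre, 32, 65 and 69 on acetate and 65, 61, 45 and 61 on control. Apart from the lowest acetate heart, which equalled the highest acetate spleen, every heart exceeded every spleen. Tcrg-V6 held 0 reads in all 12 spleens and 0 to 12 reads in the 11 hearts. Tcrg-V1 held 0 reads in all 23 libraries.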
